A study of Mus musculus with 18 samples.

Results

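The genes described here are 10 that encode basement membrane and adhesive matrix proteins. They are Col4a1 and Col4a2 (collagen IV chains), Lama1, Lama5, Lamb1 and Lamc1 (laminin chains), Nid1 (nidogen 1), Hspg2 (perlecan), Sparc and Fn1 (fibronectin). They were taken by symbol from a table of 25909 mouse genes with an identifier. All 10 passed the filter on low counts, which left 12856 genes for testing. Polyadenylated RNA was sequenced from SGET cells of strain B6CBA/129, either WT or Esrrb KO, at 3 stages with 3 libraries per group and 18 libraries in all. Esrrb encodes a nuclear receptor known for its part in naive pluripotency. Mouse embryonic stem cells kept in 2i/L were turned into epiblast-like cells (EpiLC) with ActivinA and bFGF on plates coated with fibronectin, and these were harvested unsorted. EpiLC were then turned into primordial germ cell-like cells (PGCLC) with BMP4, LIF, SCF, BMP8a and EGF, and were sorted as SG+ETlow after 3 days (day 3) or 5 days (day 5). The WT libraries of a stage are numbered 1, 2 and 3. The KO libraries carry the line names A5, B1 and A2, with 1 library per line and stage.

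Basement membranes are thin sheets of matrix on which epithelial cells sit. Laminins, each a trimer of an alpha, a beta and a gamma chain, and collagen IV, a trimer of alpha chains, form 2 networks, and nidogen and the heparan sulfate proteoglycan perlecan link them. In the early mouse embryo such a sheet underlies the epiblast, whose cells bind it through integrins, and parietal endoderm is known for very high output of collagen IV, laminin and Sparc. Fibronectin is a matrix glycoprotein that is not confined to basement membranes and is bound by integrins of migrating and mesenchymal cells.

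Library totals ran from 3032965 to 5286330 counts, with a median of 4246222. Pairs of WT libraries of a group had a chi-square of 1.12 to 1.84 for each degree of freedom, little more than counting gives, while pairs of KO libraries gave 3.996 to 34.6. No label says that WT replicates were separate cultures, so p-values measure the spread between these libraries, which may be technical. The main fit used 1 spread per gene for all 6 groups, although pairs of KO libraries, each of 2 lines, differed more than pairs of WT libraries. A p-value of KO against WT is thus not set against the KO spread alone. Esrrb stood at 20.6 to 33.2 CPM (counts scaled to the library total) in WT EpiLC and at 6.70 and 4.53 CPM in KO A5 and B1. The EpiLC library labelled KO A2 had 39.7 CPM, above all WT libraries of that stage. Results of the 10 genes that rest on it are given with and without it. Some counts of other lists and values of other genes are given with it only. At day 3 and day 5 the KO libraries held 91.3 to 200 CPM of Esrrb against 562 to 626 CPM in WT. Which part of Esrrb was removed is not given in the sources used here. Whether these counts cover that part is therefore unknown, and they do not settle which libraries match their label. The median log2 ratio to WT of chromosome 11 genes was -0.46 in the EpiLC library labelled KO A2. It was -0.42 and -0.47 in the A2 libraries of day 3 and day 5, and 0.02 to 0.07 in A5 and B1. For chromosome 1 these values were 0.33, then 0.30 and 0.31, and -0.02 to 0.05. The origin of that library was not tested otherwise. Formative epiblast markers (10 genes, among them Otx2, Fgf5 and Dnmt3b) summed to 3897 to 5949 CPM in the other 5 EpiLC libraries and to 647 to 884 CPM in PGCLC. Germ cell markers (10 genes, among them Prdm1 and Dppa3) summed to 127 to 177 CPM in all 6 EpiLC libraries and to 766 to 1198 CPM in PGCLC.

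All 10 genes were detected in every library, and levels here are CPM scaled by TMM, given per library. The plot of levels by library shows the whole set. Between genes, levels were compared only per kilobase of annotated exon. On this scale the order in WT EpiLC ran from Sparc, with a mean of 52.2 ± 1.94 CPM per kb (SD, n = 3), through Fn1 (34.3 CPM per kb) to Lamc1 (27.4) and Lama5 (27.0), whose library ranges overlapped. Lamb1 (19.5), Hspg2 (7.97), Col4a1 (5.40), Lama1 (2.74), Nid1 (2.11) and Col4a2 (1.47 CPM per kb) followed. Of these, the ranges of Nid1 and Col4a2 overlapped. In WT cells at day 3 Fn1 was highest at 98.7 ± 4.30 CPM per kb, and no neighbours in the order overlapped. Col4a2 came last there too, at 1.70 CPM per kb. At day 5 in WT, Fn1 (97.7 CPM per kb) again came before Sparc (69.0) and Lamc1 (43.1). Nid1 had moved from the ninth place in WT EpiLC to the fourth (28.9 CPM per kb), with a range that overlapped that of Hspg2 (27.3), as did the ranges of Hspg2 and Lama5 (25.2) and of Col4a1 (5.56) and Lama1 (5.31). In KO EpiLC every neighbouring pair overlapped; there 1 library stood above the rest in 9 of the 10 genes.

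**Figure D1:**
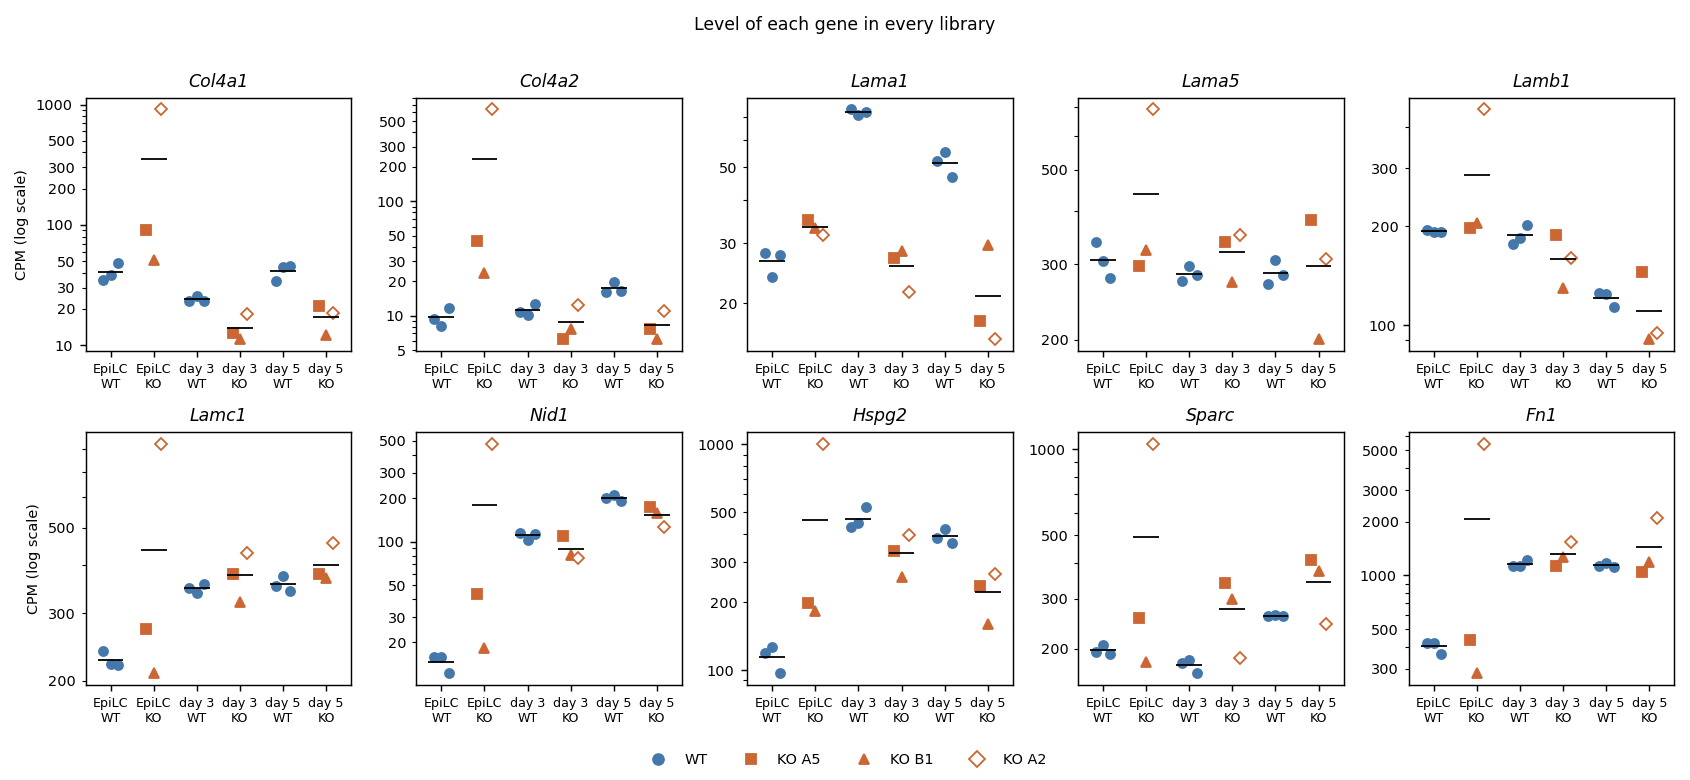
CPM (TMM-scaled, log axis) of each of the 10 genes in all 18 libraries, by stage and genotype. Points are libraries and bars are group means; 9 of the 10 genes are highest in the EpiLC library labelled KO A2, and Lama1 is highest in WT cells at day 3.

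KO and WT were compared at each stage to ask how these genes differ in cells labelled Esrrb KO. In EpiLC 4 of the 10 were called higher in KO and 0 lower, at a Benjamini-Hochberg adjusted p under 0.05 in edgeR's quasi-likelihood test, against 6.92% of all tested genes called higher and 11.1% called in either direction. The 4 were Col4a1, Col4a2, Nid1 and Hspg2. In PGCLC the only call was Lama1, lower in KO at day 3 (5.19% of all tested genes called lower and 10.2% in either direction) and at day 5 (7.62% and 17.5%). Library ranges of KO and WT did not overlap for 6 of the 10 genes in EpiLC (32.3% of all tested genes), 4 at day 3 (36.6%) and 5 at day 5 (41.1%). The median log2 fold change of the 10 genes was 1.67 in EpiLC, -0.27 at day 3 and -0.27 at day 5, beside 0.01 for all tested genes at each stage. Left without the EpiLC library labelled KO A2, the EpiLC median was 0.26 and 3 of the 10 were called (Col4a2, Nid1 and Hspg2, beside 2.29% of all tested genes called higher). In that fit 4 genes were called at day 3 (18.8% of all tested genes) and 4 at day 5 (27.6%). With only the 2 groups of a stage in the fit, 0 of the 10 were called in EpiLC (2 of 11876 genes in all), 2 at day 3 (1707 of 11733) and 5 at day 5 (2407 of 12130). The count in EpiLC was 0 without WT 1, WT 2 or WT 3, 8 without KO A5 and 7 without KO B1. For fits that leave out 1 library, the share of all tested genes called is given only for the EpiLC library labelled KO A2. Counts from the other such fits, here and below, therefore show only how the calls move and cannot be set against that share.

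**Figure D2:**
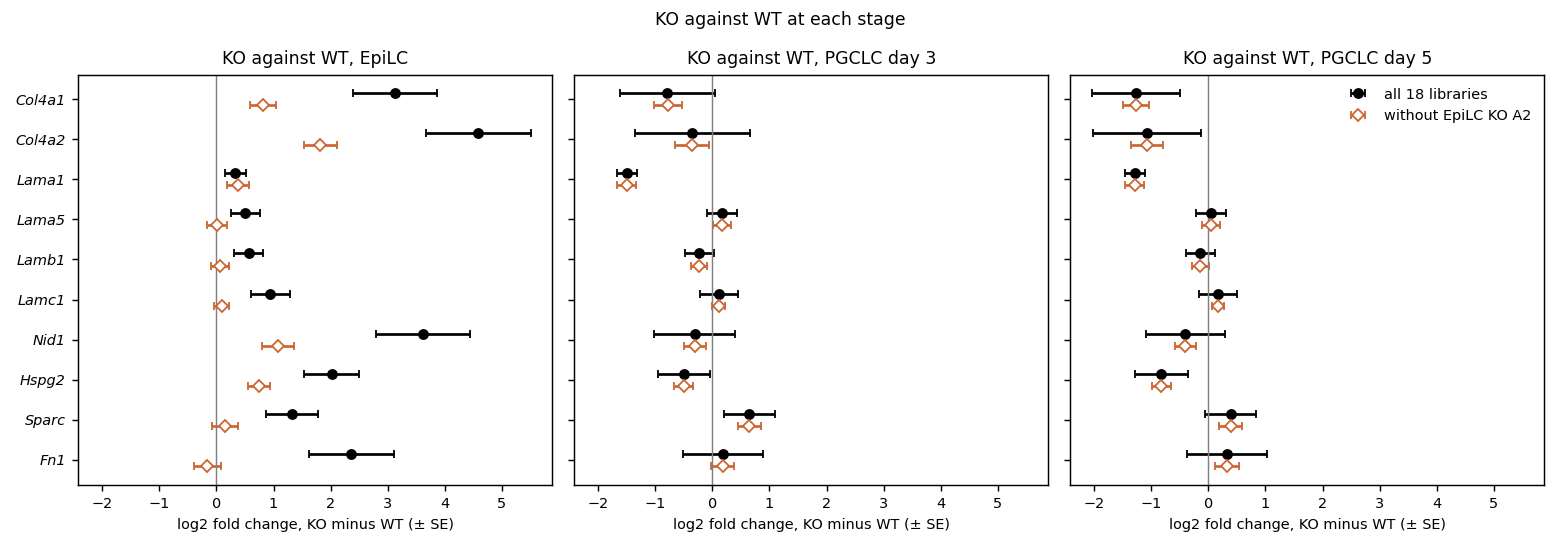
Log2 fold change of KO over WT (± SE, edgeR) for each gene at the 3 stages, from all 18 libraries (filled circles) and without the EpiLC library labelled KO A2 (open diamonds). In EpiLC the estimates move toward 0 for every gene but Lama1 when that library is left out, with Col4a2 going from 4.59 to 1.82, and in PGCLC the estimates stay and the error bars shrink for most genes.

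Col4a1 (ENSMUSG00000031502, chromosome 8, 11198423 to 11312826, minus strand) and Col4a2 (ENSMUSG00000031503, chromosome 8, 11312805 to 11449287, plus strand; positions in GRCm38) encode the alpha 1 and alpha 2 chains, which assemble into the most widespread collagen IV trimer. They lie head to head. Their annotated starts, 11312826 and 11312805, face away from each other and share 22 bases, shown here because both genes were called higher in KO EpiLC. The stretch is the plus strand of RefSeq's GRCm38.p6 sequence at chr8:11312801-11312830, and capitals mark the bases between the 2 starts.
Col4a1 and Col4a2 start sites: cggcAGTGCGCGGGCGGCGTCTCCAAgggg
Whether counting used strand is not given in the sources used here, and reads over these 22 bases (0.29% of the exon bases of Col4a1 and 0.33% of those of Col4a2) cannot be assigned for certain. A GC box, searched as GGGCGG on both strands, lies in this stretch.

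Col4a1 stood at 35.1, 38.0 and 47.9 CPM in WT EpiLC and at 89.9 (A5), 51.3 (B1) and 912 (A2) CPM in KO EpiLC. Col4a2 stood at 9.42, 8.14 and 11.7 CPM in WT and at 45.3, 23.4 and 636 CPM in the same KO libraries. For both genes all 3 KO libraries lay above all WT libraries, and KO A2 lay 10.1 times (Col4a1) and 14.0 times (Col4a2) above the next EpiLC library. The log2 fold change was 3.12 ± 0.74 for Col4a1 (SE, adjusted p = 0.0191, edgeR) and 4.59 ± 0.92 for Col4a2 (adjusted p = 0.0113). Without KO A2 it was 0.81 for Col4a1, which was then not called, and 1.82 ± 0.29 for Col4a2 (adjusted p = 0.00241).

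In PGCLC the collagen IV genes had the lowest levels per kb of the set in KO cells, together with Lama1. At day 3 Col4a1 stood at 23.4, 25.8 and 23.4 CPM in WT and at 12.6, 11.2 and 18.1 CPM in KO, with no overlap. At day 5 it stood at 34.3, 44.4 and 45.7 CPM in WT and at 21.1, 12.2 and 18.4 CPM in KO, again with no overlap. These differences, -0.79 ± 0.83 and -1.27 ± 0.77 on the log2 scale, were not called (adjusted p = 0.605 and 0.285, edgeR). They were called without the EpiLC library labelled KO A2 (-0.78 ± 0.25, adjusted p = 0.0368, and -1.27 ± 0.23, adjusted p = 0.000618), a library that is in neither group. Col4a2 stood at 10.8, 10.2 and 12.7 CPM in WT and at 6.29, 7.60 and 12.5 CPM in KO at day 3, where the groups overlapped. At day 5 its values were 16.3, 19.8 and 16.4 CPM in WT and 7.59, 6.23 and 11.0 CPM in KO, with all KO libraries lower (log2 fold change -1.07 ± 0.94, adjusted p = 0.475; -1.07 ± 0.28, adjusted p = 0.00819, without the library labelled KO A2). These levels of Col4a2 rest on 23 to 99 counts per library. The median log2 ratio to WT of chromosome 8 genes was -0.17 to -0.10 in the KO PGCLC libraries and -0.04 to 0.05 in those of WT. What this shift contributes was not tested beyond an offset by chromosome, whose values for these 2 genes are not reported here.

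Lama1 (ENSMUSG00000032796, chromosome 17, 67697259 to 67822647) encodes the laminin alpha 1 chain, an alpha chain of early embryonic laminin. It was the only gene of the set called lower in KO in PGCLC. At day 3 it stood at 73.8, 71.1 and 72.6 CPM in WT and at 27.1 (A5), 28.4 (B1) and 21.6 (A2) CPM in KO. At day 5 the values were 52.0, 55.4 and 46.9 CPM in WT and 17.8, 29.7 and 15.7 CPM in KO. The groups were far apart at both stages, with log2 fold changes of -1.50 ± 0.18 (SE, adjusted p = 6.45e-05, edgeR) and -1.29 ± 0.18 (adjusted p = 0.000135), that is, WT levels 2.82 times and 2.44 times those in KO. Both calls were made in each of the 18 fits that left out a library. In EpiLC Lama1 stood at 28.0, 23.9 and 27.6 CPM in WT and at 35.1, 33.2 and 31.6 CPM in KO. All KO libraries were above WT there, but the log2 fold change of 0.33 ± 0.18 was not called (adjusted p = 0.228). Lama1 was also the only gene of the set that was not raised in the EpiLC library labelled KO A2, where it was 0.90 times the highest other EpiLC library.

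Lama5 (ENSMUSG00000015647, chromosome 2, 180176373 to 180225859) encodes the laminin alpha 5 chain, a widespread alpha chain. Its levels in PGCLC spanned 200 to 381 CPM with overlap of WT and KO at both stages. The log2 fold change at day 5 was 0.05 ± 0.26 (95% interval -0.50 to 0.60), and that at day 3 was 0.17 ± 0.26 (interval -0.38 to 0.72). In EpiLC it stood at 339, 306 and 279 CPM in WT and at 298, 323 and 692 CPM in KO, of which only the library labelled KO A2 lay above WT (log2 fold change 0.51 ± 0.26, adjusted p = 0.204, edgeR). Without that library the value was 0.01.

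Lamb1 (ENSMUSG00000002900, chromosome 12, 31265234 to 31329644) and Lamc1 (ENSMUSG00000026478, chromosome 1, 153218922 to 153332786) encode the beta 1 and gamma 1 chains, which are shared by laminins with either alpha chain. In EpiLC Lamb1 stood at 195, 192 and 193 CPM in WT and at 198, 205 and 454 CPM in KO. Lamc1 stood at 239, 222 and 220 CPM in WT and at 273, 209 and 829 CPM in KO. The first 2 KO libraries of Lamc1 lay on either side of WT, those of Lamb1 just above it, and the library labelled KO A2 lay far above. Neither gene was called between KO and WT in EpiLC (log2 fold change 0.56 ± 0.25, adjusted p = 0.151, for Lamb1 and 0.95 ± 0.34, adjusted p = 0.0787, for Lamc1). Without that library the values were 0.06 and 0.09. In PGCLC the KO and WT ranges of both genes overlapped, and the largest difference was -0.23 ± 0.25 (Lamb1 at day 3).

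Nid1 (ENSMUSG00000005397, chromosome 13, 13437551 to 13512269) and Hspg2 (ENSMUSG00000028763, chromosome 4, 137468769 to 137570630) encode the linkers between the laminin and collagen networks. They are the 2 genes of the set that were called both in KO EpiLC and on the way from WT EpiLC to day 3. Promoter windows (250 bases before to 50 after a start, RefSeq, GRCm38.p6) were found for 7 of the 10 genes, and those of Nid1 and Hspg2 are printed up to the annotated gene start, plus strand, at chr13:13437352-13437550 and chr4:137468553-137468768. Capitals mark GC boxes (GGGCGG, both strands).
Nid1 promoter: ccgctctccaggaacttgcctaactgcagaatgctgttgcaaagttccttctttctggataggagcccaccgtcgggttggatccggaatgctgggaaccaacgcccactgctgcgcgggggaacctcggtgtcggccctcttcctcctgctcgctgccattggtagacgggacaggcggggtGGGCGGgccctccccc
Hspg2 promoter: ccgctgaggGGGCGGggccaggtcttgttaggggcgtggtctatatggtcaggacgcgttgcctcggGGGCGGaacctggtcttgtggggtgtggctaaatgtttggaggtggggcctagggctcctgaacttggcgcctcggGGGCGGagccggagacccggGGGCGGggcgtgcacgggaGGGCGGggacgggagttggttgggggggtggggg
The Nid1 stretch holds 1 GC box and the Hspg2 stretch 5. GC boxes were found in 6 of the 7 windows (all but Sparc), and in 35.7% of all 32851 windows in the table. The Col4a1 and Col4a2 windows overlap, and the only GC box of the Col4a1 window lies in the part they share. That box is thus counted in 2 of the 6 windows. GC content was 63.7% to 74.0% in the windows with a GC box and 55.3% in that of Sparc. CCAAT was found in 4 of the 7 (37.4% of all windows), while TATAAA (13.6%), TGANTCA (the AP-1 site, 7.81%) and TCAAGGTCA (the element of estrogen-related receptors, 0.423%) were found in 0 of the 7. No motif searched is contained in another, and a match to letters is not a binding site.

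In EpiLC Nid1 stood at 16.0, 15.8 and 12.2 CPM in WT and at 43.2 (A5), 18.4 (B1) and 479 (A2) CPM in KO. Hspg2 stood at 119, 126 and 96.9 CPM in WT and at 198, 183 and 1008 CPM in KO. All KO libraries were above WT for both, narrowly for Nid1 in B1. The log2 fold change was 3.62 ± 0.83 for Nid1 (SE, adjusted p = 0.0180, edgeR) and 2.02 ± 0.48 for Hspg2 (adjusted p = 0.0196). Without the library labelled KO A2 both calls stood at smaller values, 1.08 ± 0.29 (adjusted p = 0.0422) and 0.74 ± 0.19 (adjusted p = 0.0410).

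In PGCLC the levels of both linkers were lower on average in KO. Hspg2 stood at 430, 449 and 526 CPM in WT and at 337, 258 and 395 CPM in KO at day 3. At day 5 it stood at 386, 421 and 366 CPM in WT and at 237, 159 and 267 CPM in KO. No library overlapped at either stage, but with all 18 libraries the log2 fold changes of -0.50 ± 0.46 and -0.82 ± 0.46 were not called (adjusted p = 0.536 and 0.239, edgeR). Without the EpiLC library labelled KO A2 they were called, at -0.50 ± 0.17 (adjusted p = 0.0461) and -0.82 ± 0.17 (adjusted p = 0.00187). Nid1 stood at 115, 103 and 113 CPM in WT and at 110, 80.3 and 77.1 CPM in KO at day 3, and at 201, 209 and 192 CPM in WT and 173, 158 and 126 CPM in KO at day 5. Its groups overlapped at day 3 and did not at day 5, and neither difference was called in either fit.

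Sparc (ENSMUSG00000018593, chromosome 11, 55394500 to 55423183) encodes a secreted protein that binds collagen IV. In EpiLC it stood at 196, 206 and 191 CPM in WT and at 258, 180 and 1048 CPM in KO, with KO B1 under the WT range (log2 fold change 1.33 ± 0.45, adjusted p = 0.0684, edgeR). In PGCLC its KO lines A5 and B1 stood apart from A2. At day 3 WT held 179, 183 and 165 CPM, KO A5 and B1 340 and 300 CPM, and KO A2 185 CPM. At day 5 WT held 260, 264 and 261 CPM, A5 and B1 410 and 376 CPM, and A2 244 CPM. Thus A5 and B1 were well above WT at both stages and A2 was next to WT, just above it at day 3 and below it at day 5. The fold change was not called at either stage (0.65 ± 0.45 and 0.39 ± 0.45). Without the EpiLC library labelled KO A2, the day 3 value was called (0.65 ± 0.20, adjusted p = 0.0340). In line A2 the median log2 ratio of genes of chromosome 11 to WT lay between -0.47 and -0.42 at the 3 stages, against 0.02 to 0.07 in A5 and B1. Adjusted by chromosome, the day 3 value of Sparc was 0.71. The part of this shift in the level of Sparc was not tested otherwise.

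Fn1 (ENSMUSG00000026193, chromosome 1, 71585520 to 71653200) encodes fibronectin. In EpiLC it stood at 421, 418 and 362 CPM in WT, at 435 and 284 CPM in KO A5 and B1, and at 5465 CPM in the library labelled KO A2. That library thus stood 12.6 times above the next EpiLC library, while the other KO libraries lay above and below the WT range. The log2 fold change of 2.36 ± 0.74 just missed the threshold (adjusted p = 0.0505, edgeR), and without the library it was -0.16. In PGCLC Fn1 stood at 1122 to 1212 CPM in WT and 1124 to 1533 CPM in KO at day 3, and at 1115 to 1179 CPM in WT and 1039 to 2093 CPM in KO at day 5. The top of the KO range was line A2 at both stages, with the other lines at or near the WT level. In line A2 the median log2 ratio of chromosome 1 genes to WT was 0.30 to 0.33 at the 3 stages, against -0.02 to 0.05 in A5 and B1, and Lamc1, also on chromosome 1, was highest in A2 at each stage as well. What this shift contributes was not tested beyond an offset by chromosome, under which the EpiLC value of Fn1 was 2.08.

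The 10 genes summed to 11554 CPM in the EpiLC library labelled KO A2, against 1441 to 1873 CPM in the other EpiLC libraries and 2585 to 3635 CPM in PGCLC. Of this sum Fn1 gave 5465 CPM. Markers of other cell types moved with it. The fibroblast and mesenchyme list (18 genes) summed to 2259 CPM there against 279 to 373 CPM in the other 5 EpiLC libraries, and 13 of its 18 genes were above all of these. Vim stood at 1459 CPM (157 to 214 CPM elsewhere in EpiLC) and Col1a1 at 164 CPM (2.08 to 43.0 CPM). Thy1 (2.85 CPM against 14.6 to 30.2 CPM) and Twist1 (4.99 CPM against 6.04 to 8.63 CPM) were below all other EpiLC libraries. Postn stood at 2.61 CPM (0 CPM elsewhere in EpiLC), and Lum was at 0 CPM in all EpiLC libraries. The trophoblast list (14 genes) summed to 1504 CPM against 73.4 to 259 CPM, with 12 of 14 above all other EpiLC libraries. It was led by the keratins Krt18 (685 CPM) and Krt8 (486 CPM). Cdx2 stood at 5.47 CPM (at most 1.51 CPM elsewhere in EpiLC), and Elf5 was at 0 CPM in all EpiLC libraries. The endoderm list (20 genes) summed to 353 CPM, within the 319 to 363 CPM of the other EpiLC libraries. Most of that sum was Lrp2 (276 CPM there, 256 to 280 CPM elsewhere). Of the 20 genes, 14 were under 5 CPM in that library, among them Gata4 (2.14 CPM), and Hnf4a, Ttr and Apoa1 were at 0 counts. Of the same 20 genes, 5 were above every other EpiLC library: Thbd (18.8 CPM against at most 0.26 CPM), Gata6 (8.56 against at most 1.16 CPM), Pdgfra (4.52 against at most 1.23 CPM), Sox17 (1.19 against at most 0.79 CPM) and Foxa2 (0.95 against at most 0.46 CPM). Dab2 (16.2 CPM) and Cubn (7.84 CPM) were within the range of the other EpiLC libraries. Between KO and WT in EpiLC, 3 of the 10 endoderm genes tested were called higher and 0 lower, with a median log2 fold change of 1.34. The fibroblast list gave 3 higher and 1 lower of 11, and the trophoblast list 7 and 0 of 12. Of all tested genes 6.92% were called higher and 11.1% in either direction. Without that library the endoderm list gave 2 and 0, with a median of 0.40, beside 2.29% of all tested genes called higher. The fibroblast and trophoblast counts above include that library, and their counts without it are not reported here. How far they rest on it is thus not shown. Endothelial markers summed to 148 CPM (106 to 137 CPM elsewhere), naive pluripotency markers to 424 CPM (96.1 to 226 CPM), and formative epiblast markers to 2205 CPM (3897 to 5949 CPM). In bulk RNA, more cells of a type and more RNA per cell cannot be told apart, and the part of these cells in the matrix levels was not tested.

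**Figure D3:**
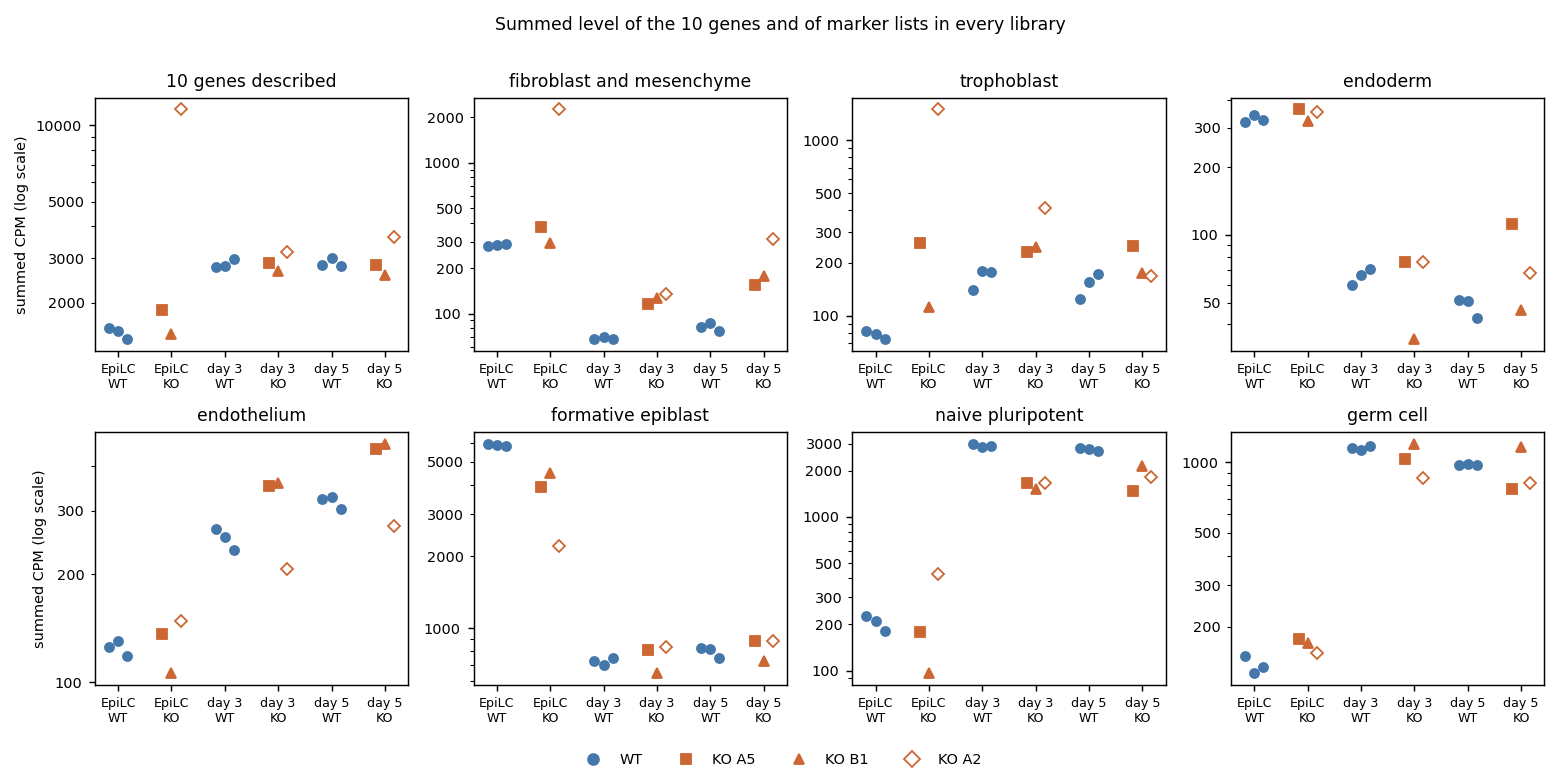
Summed CPM (log axis) of the 10 genes and of 7 marker lists in all 18 libraries, by stage and genotype. The EpiLC library labelled KO A2 (open diamond) is highest in the sums of the 10 genes (11554 CPM), of the fibroblast list (2259 CPM) and of the trophoblast list (1504 CPM), and lies among the other EpiLC libraries in the endoderm list.

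In KO PGCLC the same marker lists stood apart from WT in part. The fibroblast and mesenchyme list summed to 115 to 311 CPM in KO and 67.7 to 86.6 CPM in WT, and the trophoblast list to 168 to 410 CPM against 125 to 179 CPM. Naive markers, Esrrb among them, summed to 1465 to 2146 CPM in KO and 2673 to 3000 CPM in WT. Of fibroblast genes 0 of 11 were called at day 3 and 2 were higher at day 5. Of trophoblast genes 1 of 12 was higher at each stage. Of naive genes 3 of 10 were lower at day 3 and 2 at day 5. Endoderm markers gave 0 higher and 1 lower of 10, then 3 and 1. Endothelial markers gave 1 and 0 of 5, then 2 and 0, and formative markers 2 and 1 of 10, then 3 and 1. Of all tested genes 10.2% were called at day 3 and 17.5% at day 5. Any link of these lists to the levels of Lama1, Col4a1 and Hspg2 there was not tested.

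The step from EpiLC to day 3 asks how these genes move as epiblast-like cells become germ cell-like. In WT 3 of the 10 rose and 0 fell, against 57.5% of all tested genes called in either direction and 29% called higher. With only the 2 WT groups in the fit, 5 rose and 3 fell, beside 9384 of 12063 genes called, and without KO line A2 5 rose and 1 fell, beside 69.5% of all genes. The 3 were Lama1, Nid1 and Hspg2. Nid1 rose most, from 12.2 to 16.0 CPM in EpiLC to 103 to 115 CPM at day 3 (log2 fold change 2.91 ± 0.82, adjusted p = 0.00682, edgeR). Hspg2 rose from 96.9 to 126 CPM to 430 to 526 CPM (2.04 ± 0.48, adjusted p = 0.00193), and Lama1 from 23.9 to 28.0 CPM to 71.1 to 73.8 CPM (1.45 ± 0.18, adjusted p = 4.77e-06). For Fn1 the WT values went from 362 to 421 CPM to 1122 to 1212 CPM without overlap, but the log2 fold change of 1.53 ± 0.72 was not called (adjusted p = 0.0809). It was called without the EpiLC library labelled KO A2 (1.53 ± 0.21, adjusted p = 1.37e-05), as were Lamc1 (0.62 ± 0.11, adjusted p = 0.000111) and Col4a1 (-0.73 ± 0.22, adjusted p = 0.00853), which made 6 calls in all beside 63.3% of all genes. Without KO B1 in EpiLC there were 5. Library ranges did not overlap for 7 of the 10 genes, against 77% of all tested genes. Lama5, Lamb1 and Col4a2 were the 3 whose ranges overlapped, with log2 fold changes of -0.11, -0.04 and 0.20.

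In KO the same step gave 0 genes higher and 3 lower, beside 42% of all tested genes called and 21.4% called lower. These were Col4a1 (log2 fold change -4.64 ± 0.82, adjusted p = 0.000384, edgeR), Col4a2 (-4.74 ± 0.93, adjusted p = 0.000889) and Lamb1 (-0.84 ± 0.25, adjusted p = 0.0149). Library ranges did not overlap for 4 of the 10, against 39.8% of all tested genes. These counts rested on the EpiLC library labelled KO A2. Without it, 4 genes rose and 2 fell, beside 50.1% of all genes called. Fn1 (1.87 ± 0.25, adjusted p = 1.72e-05), Nid1 (1.53 ± 0.25, adjusted p = 0.000104), Hspg2 (0.80 ± 0.19, adjusted p = 0.00272) and Lamc1 (0.65 ± 0.13, adjusted p = 0.000399) were then higher at day 3. Col4a1 (-2.33 ± 0.25, adjusted p = 1.35e-06) and Col4a2 (-1.97 ± 0.29, adjusted p = 3.11e-05) stayed lower, with KO A5 and B1 at 51.3 to 89.9 CPM of Col4a1 in EpiLC and 11.2 to 12.6 CPM at day 3. The count was 5 without EpiLC KO B1, all lower.

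**Figure D4:**
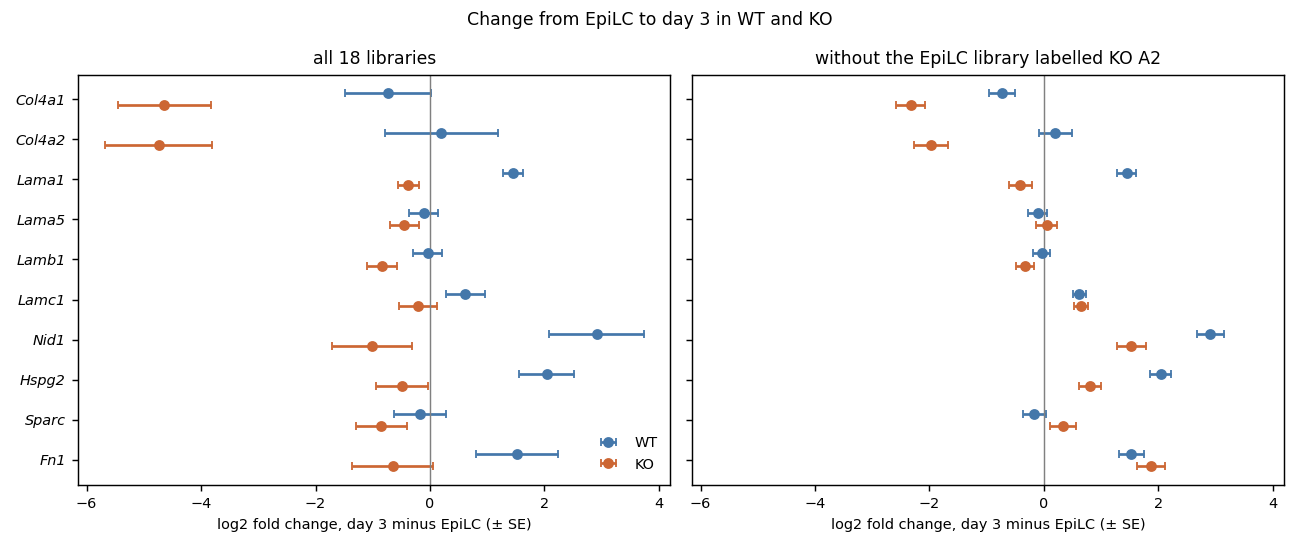
Log2 fold change from EpiLC to day 3 (± SE, edgeR) of each gene in WT (blue) and KO (orange), from all 18 libraries (left) and without the EpiLC library labelled KO A2 (right). Lama1, with 1.45 in WT and -0.38 in KO, keeps the same gap in both panels, while the KO values of Nid1, Hspg2, Lamc1, Fn1, Sparc and Lama5 change sign.

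Whether the step differed between genotypes was tested as an interaction, which compares it in KO with that in WT. Of the 10 genes 5 were called lower in KO and 0 higher, against 6.59% of all tested genes called and 3.63% called lower. These were Lama1 (-1.83 ± 0.25 on the log2 scale, adjusted p = 0.000782, edgeR), Hspg2 (-2.52 ± 0.66, adjusted p = 0.0339), Col4a2 (-4.94 ± 1.34, adjusted p = 0.0397), Nid1 (-3.92 ± 1.08, adjusted p = 0.0425) and Col4a1 (-3.91 ± 1.09, adjusted p = 0.0443). The same 5 were called without the EpiLC library labelled KO A2, at -1.86, -1.24, -2.17, -1.38 and -1.59, beside 7.97% of all genes. KO line names paired the libraries, and with a replicate block 3 were called (Lama1, Hspg2 and Col4a2), while Nid1 (-3.22) and Col4a1 (-3.24) were not. Lama1 was called in each of 18 fits that left out a library. The other 4 were close to the threshold: the count was 1 without any WT EpiLC or any day 3 library and 2 without any day 5 library. It was also 1 with only the 4 groups of the test in the fit (456 of 12518 genes called) or with no filter, and 2 with limma-trend. The share of all tested genes called with the replicate block, no filter or limma-trend is not reported here. Those counts therefore show only how the calls move. In levels, Lama1 in KO did not leave its EpiLC range upward: 31.6 to 35.1 CPM in EpiLC and 21.6 to 28.4 CPM at day 3, where WT went from 23.9 to 28.0 CPM to 71.1 to 73.8 CPM.

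Between day 3 and day 5 none of the 10 genes was called, in WT (0.77% of all tested genes called) or in KO (0.552%), nor was any called for the difference between genotypes (0% of 12856 genes in edgeR). At an unadjusted p under 0.05, Lama1 (-0.49) and Lamb1 (-0.63) differed in WT, and 0 genes did in KO or in the interaction. DESeq2 called 0 of the 10 in these comparisons too, where a gene without an adjusted p counts as not called. Other fits gave calls in WT: with only the 2 WT groups 4 genes were higher and 3 lower at day 5, beside 3687 of 11922 genes called, and without KO line A2 4 and 2, beside 15.5% of all genes. In WT the libraries of 7 of the 10 genes nonetheless did not overlap, beside 40.5% of all genes. Nid1 went from 103 to 115 CPM to 192 to 209 CPM, Sparc from 165 to 183 CPM to 260 to 264 CPM, and Lamb1 from 176 to 202 CPM to 114 to 125 CPM. In KO only Nid1 had no overlap (77.1 to 110 CPM, then 126 to 173 CPM), beside 13.8% of all genes. Without the EpiLC library labelled KO A2, Nid1 was called in WT (0.86 ± 0.19, adjusted p = 0.0172) and in KO (0.76 ± 0.19, adjusted p = 0.0483), and Lamb1 in WT (-0.63 ± 0.15, adjusted p = 0.0199). Without KO B1 at day 5, 1 gene was called in WT.

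Partner chains were set against each other as ratios of counts per kb within a library, which do not depend on the scaling of libraries. Col4a1 exceeded Col4a2 by 3.30 to 4.14 times in WT EpiLC and by 1.27 to 1.95 times in KO EpiLC, so the groups did not overlap and the library labelled KO A2 (1.27) was lowest. In PGCLC the ratio lay between 1.28 and 2.47 with overlap of the genotypes at both stages. Lama1 was 0.09 to 0.12 of Lama5 in WT EpiLC, 0.28 to 0.32 at day 3 and 0.19 to 0.23 at day 5. In KO it stayed at 0.05 to 0.17 over all 9 libraries, below WT at day 3 and day 5 without overlap. Lamb1 was 0.68 to 0.73 of Lamc1 in WT EpiLC, 0.42 to 0.47 at day 3 and 0.28 to 0.30 at day 5, while Nid1 went from 0.07 to 0.08 of Lamc1 to 0.36 to 0.39 and then 0.67 to 0.68. These ratios are a description of the libraries, with no test.

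**Figure D5:**
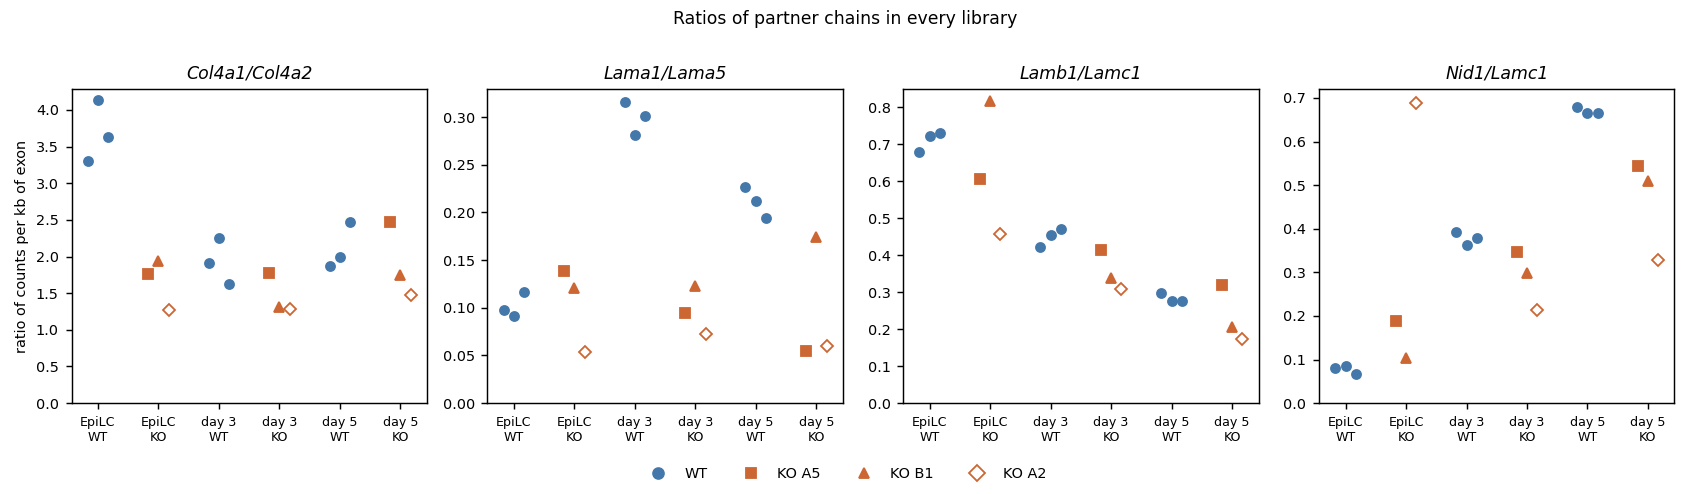
Ratio of counts per kb of exon for 4 pairs of genes in all 18 libraries, by stage and genotype. The Lama1 to Lama5 ratio is at least 0.19 in all WT PGCLC libraries and at most 0.17 in all KO libraries, and the Lamb1 to Lamc1 ratio is lower at each later stage in WT.

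The 10 genes did not share a single pattern over libraries. Over the 18 libraries the 45 pairs of genes had Pearson r of log2 CPM between -0.29 and 0.97, with a median of 0.46 and 4 negative values. Over the 17 libraries without the EpiLC library labelled KO A2 the range was -0.67 to 0.96, the median 0.06, and 21 pairs were negative. Libraries of a group share their condition and depth, so these values only describe the set. Lamc1 and Fn1 were most alike (0.97 over 18 and 0.96 over 17 libraries), and Col4a1 and Fn1 were least alike over 17 (-0.67). Among 10828 other genes, the log2 levels that followed the mean profile of the set most closely over 18 libraries were those of Plec (r = 0.94), Errfi1 (0.94), Fez2, Itgav and Amotl1 (0.93 each). Over 17 libraries they were Synj1, Stard8, Rb1, Tspan9 (0.90 each) and Amotl1 (0.89).

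Genes around this set were counted in 5 further lists. In KO EpiLC, other chains of the same families gave 3 of 7 tested genes higher and 0 lower, other basement membrane proteins 4 and 0 of 14, collagen assembly enzymes 3 and 0 of 18, receptors 3 and 1 of 24, and turnover genes 9 and 0 of 19, against 11.1% of all tested genes called and 6.92% called higher. The median log2 fold changes of these lists were 0.93, 0.76, 0.35, 0.65 and 1.30, beside 0.01 for all tested genes. Among those that rose were Serpinh1 (log2 fold change 2.09, the collagen chaperone), Loxl2 (3.24, a collagen crosslinking oxidase) and Itgav (1.91, an integrin alpha chain). These 3 values come from all 18 libraries. Without the library labelled KO A2 the counts were 1 and 0, 1 and 0, 0 and 0, 1 and 2, and 3 and 0, in the same order of lists, beside 4.57% of all tested genes called.

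In KO PGCLC 1 of the 7 family chains fell at day 3, and 1 rose and 1 fell at day 5. Nid2, the other nidogen, fell at both stages, from 465 to 309 CPM in mean level at day 3 (log2 fold change -0.59 ± 0.13, adjusted p = 0.00777, edgeR) and from 478 to 348 CPM at day 5 (-0.46 ± 0.13, adjusted p = 0.0209). Lama3 rose at day 5 (1.76). Among receptors 3 of 24 fell and 0 rose at day 3, and 5 fell and 1 rose at day 5, against 10.2% and 17.5% of all tested genes called. Itga6 and Itga3, whose products pair with beta 1 integrin to bind laminin, were among those lower at both stages, by -0.84 and -1.32 at day 3 and by -0.86 and -1.51 at day 5. Assembly enzymes gave 0 higher and 1 lower of 18 at day 3, and 2 and 2 at day 5, with Serpinh1 higher at day 5 (1.70). Linker proteins gave 2 and 0 of 14, then 4 and 0, and turnover genes 0 of 19 at either stage. Without the EpiLC library labelled KO A2, receptors gave 0 higher and 5 lower at day 3 and 1 and 8 at day 5, against 18.8% and 27.6% of all tested genes called.

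In the WT step to day 3, family chains gave 2 higher and 1 lower of 7, linker proteins 6 and 1 of 14, assembly enzymes 8 and 6 of 18, receptors 10 and 6 of 24, and turnover genes 1 and 5 of 19, against 29% of all tested genes called higher and 57.5% called in either direction. The median log2 fold changes of these lists were 0.84, 0.47, 0.33, 0.31 and 0.13, beside 0.00 for all tested genes. Nid2 rose (1.17) as Nid1 did, as did Lamb2 (1.29, laminin beta 2), P4ha1 (2.60, a subunit of collagen prolyl hydroxylase) and Itgb3 (2.98, integrin beta 3). Pxdn, whose product crosslinks collagen IV, fell (-1.86). In KO the counts were 1 and 1, 3 and 4, 3 and 7, 3 and 11, and 1 and 10, against 42% of all tested genes called. For the interaction, 7 genes of the 5 lists were called, all lower in KO, against 6.59% of all tested genes called and 3.63% called lower. By list they were 0 of 7, 1 of 14, 1 of 18, 4 of 24 and 1 of 19. The 4 receptors were Itgav, Itga9, Itga3 and Sgce, and Tinagl1 and P4ha2 were among the others. These KO and interaction counts include the EpiLC library labelled KO A2. There receptors summed to 3195 CPM (1398 to 1588 CPM elsewhere in EpiLC) and turnover genes to 2169 CPM (262 to 463 CPM). Counts of these lists without it are not reported here for the 2 comparisons.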

How the data were processed

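RNA of 18 libraries was measured as raw counts per gene, deposited by the authors per library, and as CPM, deposited for the whole series. The deposited CPM match counts over library totals. Trim Galore 0.4.3.1 and the builds mm10 and GRCm38.p4 are named, per the submitters' processing notes. Per the labels' protocols, RNA was extracted with a PicoPure kit and libraries were made with a directional NEB Ultra II kit. Aligner, counter, annotation and use of strand in counting were not given in the sources used here. The late PGCLC libraries are called day 5 in titles and d6 in descriptions, and line A2 is written KO2 in titles. Of 25965 rows, 56 carry no identifier (0.0559% to 0.0828% of counts) and were left out. Positions, exon lengths and overlaps come from GENCODE M21 on GRCm38, perhaps not what the authors counted on. Antisense genes share 0.65% of the exon bases of Col4a2, 2.06% of Nid1 and 2.5% of Fn1.

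In R 4.3.3, edgeR 4.0.16 fitted genes passing filterByExpr (12856) with TMM factors (0.964 to 1.04), a mean for each of the 6 groups and robust quasi-likelihood. Adjusted p are Benjamini-Hochberg over all tested genes, with calls under 0.05. The SE is the log2 fold change divided by the root of the F statistic. The fit was run on simulated counts with equal spread in all groups and no outlying library, for KO against WT at day 3. It recovered 28% of 1.5-fold, 82% of 2-fold and 100% of 4-fold changes (50 genes each), and called 0.0892% of unchanged genes. With these settings the simulation does not cover the EpiLC comparisons. Alternatives were RLE size factors, no filter, DESeq2 1.42.0, limma-trend (limma 3.58.1) on log2 of deposited CPM plus 1, only the groups compared, no line A2, an offset by chromosome, each library left out, and a replicate block. Names pair libraries where deviations from group means correlate above 0.1. KO names did in 9 of 9 pairs (0.11 to 0.59) and WT numbers in 0 of 9 (-0.05 to 0.07).

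The members and lists were chosen with earlier results of these data known, so no p over a list is given. Named list genes are up to 4 per list and comparison with the largest change, if called and with a group mean of 5 CPM or more; some are not reported here. The profile compared with other genes is the mean z-score of log2 CPM (prior count 2), among genes of at least 5 CPM on average. List counts without the EpiLC library labelled KO A2 were added after seeing the data. Marker genes of that library outside the rule were named after their values were seen.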

Additional observations from a re-analysis of the deposited data

Results flagged for a closer look

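The change from EpiLC to day 3 differed between KO and WT by a test of the difference itself (the interaction in edgeR) for 5 of the 10 genes. The difference, KO minus WT on the log2 scale, was -3.91 for Col4a1, -4.94 for Col4a2, -1.83 for Lama1, -3.92 for Nid1 and -2.52 for Hspg2. Lama1 rose in WT (1.45) and was not called in KO (-0.38). For Nid1 and Hspg2 the value rests in size on the EpiLC library labelled KO A2, without which it was -1.38 and -1.24, and for Col4a1 and Col4a2 it was then -1.59 and -2.17.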

How the results depend on the processing

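Counts of the 10 genes called were compared over alternatives for the 9 comparisons. RLE size factors, DESeq2 and the chromosome offset left every count within 1.5 times. DESeq2 gave an adjusted p for fewer values of single genes (80 the same and 1 stronger) than RLE (90 the same). Values without one count as not called. With only the groups compared in the fit, the counts were 0 for KO in EpiLC, 2 at day 3, 5 at day 5, 8 for the WT step to day 3, 7 for WT day 5 against day 3, and 1 for the interaction with that step. Without KO line A2 they were 3 at day 3, 5 at day 5, 6 and 7 for the WT and KO steps to day 3, and 6 for WT day 5 against day 3. The shares of all tested genes called were then 20.9%, 29.9%, 69.5%, 57% and 15.5%, in the same order. That fit reversed the KO step of Lamc1 (0.53), Nid1 (1.62), Hspg2 (0.65), Sparc (0.54) and Fn1 (1.73), and the interaction of Sparc (0.72). For the interaction the count was 1 with no filter, 2 with limma-trend and 3 with the replicate block, which changed no other count by more than 1.5 times. The share of all tested genes called in these fits is not reported here.

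Leaving out each library gave 0 to 8 calls for KO in EpiLC, 1 to 4 at day 3, 1 to 4 at day 5, 3 to 6 and 2 to 6 for the WT and KO steps, 0 to 2 and 0 to 1 for day 5 against day 3 in WT and KO, 1 to 6 for the interaction with induction, and 0 to 0 for that with maturation. The share of all tested genes called in each of these fits is not reported here, save for the EpiLC library labelled KO A2. In these fits the KO step ranged from -0.55 to 0.65 for Lamc1, -1.54 to 1.53 for Nid1, -0.87 to 0.80 for Hspg2 and -1.17 to 1.87 for Fn1. The positive end was without the EpiLC library labelled KO A2. A reversal is counted where a value passed the threshold in 1 of the fits. A further 41 of 2301 values changed sign with neither past it. The cause of these changes was not tested. Col4a2 had 23 to 99 counts per PGCLC library. Its SE at day 5 was 0.94 with all libraries and 0.28 without the EpiLC library labelled KO A2, at the same counts.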

Other observations

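With all 18 libraries in the fit, Frem2 rose in KO at all 3 stages by edgeR. It encodes a basement membrane protein of the Fraser complex. Its mean level was 98.9 CPM in KO and 71.7 CPM in WT in EpiLC (log2 fold change 0.46 ± 0.11, adjusted p = 0.0164), 122 and 88.0 CPM at day 3 (0.47 ± 0.10, adjusted p = 0.00916) and 111 and 68.3 CPM at day 5 (0.70 ± 0.10, adjusted p = 0.000271). Fbln1 (fibulin 1) rose in KO at day 5 (0.57 ± 0.15, adjusted p = 0.0148). Sdc4, a cell surface heparan sulfate proteoglycan, fell at day 5 from 233 CPM in WT to 144 CPM in KO (-0.69 ± 0.16, adjusted p = 0.00627). Ddr2, a collagen receptor, rose from day 3 to day 5 in KO (2.38 ± 0.49, adjusted p = 0.0452), from a mean of 2.17 to 11.4 CPM. In WT its mean went from 1.67 to 5.74 CPM, which was not called. No gene was called for the difference between genotypes in this step.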
